A study of Homo sapiens with 24 samples.

Results

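Transcripts of the human CYP3A subfamily were read by 12 of the 22215 probe sets of the array that are not controls. They are every probe set whose annotation gives CYP3A4, CYP3A5, CYP3A7 or CYP3A43, alone or with another symbol (4 of the 13119 gene symbols annotated). CYP3A4 had 4 probe sets (205999_x_at, 208367_x_at, 205998_x_at and 210726_at) and CYP3A5 had 3 (214235_at, 214234_s_at and 205765_at). CYP3A7 had 1 (205939_at, annotated also to the readthrough gene CYP3A7-CYP3A51P) and CYP3A43 had 4 (211442_x_at, 211441_x_at, 211440_x_at and 207773_x_at). A probe set is a group of short probes whose signals are summarised to a single value. In the maker's naming, the ending _x_at warns that some probes also match other transcripts and _s_at that probes match several related ones. Of the 12, 7 end in _x_at, 3 for CYP3A4 and 4 for CYP3A43. All 12 passed the filter on low signals.

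HepaRG is an established human liver cell line that grows as bipotent progenitor cells and differentiates into hepatocyte-like and bile-duct-like cells. All groups came from HepaRG cells kept for 2 weeks in growth medium with serum, insulin and hydrocortisone hemisuccinate and for 2 more weeks with 2% DMSO, from which the hepatocyte-like cells were lifted off by a mild trypsin treatment and replated sparsely, which starts their reprogramming. RNA was taken at 8 times after replating (0, 1 and 4 h, then 8, 12 and 16 h, then 24 and 48 h), from 3 replicates each (24 arrays), and the medium after replating is not given in the labels. The labels describe no group that was replated densely or left attached, so the time since replating cannot be told apart from detachment, density or a change of medium. The labels do not say whether replicates are separate cultures, so the p-values rest on a spread between samples that could be technical.

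CYP3A enzymes are haem monooxygenases of the endoplasmic reticulum that oxidise steroids, bile acids and a large share of prescribed drugs. CYP3A4 is the main form of adult liver, CYP3A5 is made in some people only because of a common splicing variant, CYP3A7 is the form of fetal liver and CYP3A43 is a minor form. The xenobiotic receptors PXR and CAR, with RXR as their partner, switch on CYP3A4 from sites near its start and farther upstream, and hydrocortisone and DMSO are both known to sustain its expression in HepaRG cells. The 4 genes lie side by side on chromosome 7 in the order CYP3A5, CYP3A7, CYP3A4, CYP3A43, with CYP3A43 on the plus strand and the others on the minus strand, and their transcripts resemble each other, which is why a probe for a member of the family can also bind RNA of another.

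The upstream regions of the genes, which probes do not read, were compared from RefSeq (GRCh38.p14; all 4 symbols matched), and no transcript or probe sequences were compared. They are shown because CYP3A4 carries an everted repeat of 2 receptor-binding groups known as ER6, bound by PXR with RXR. The 60 bases around it are printed 5′ to 3′, with the 18 letters of the repeat, or the best match to it without gaps, in capitals.
CYP3A4, chr7:99784315-99784374, minus strand: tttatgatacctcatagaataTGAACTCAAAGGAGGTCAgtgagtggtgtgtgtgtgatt
CYP3A5, chr7:99680071-99680130, minus strand: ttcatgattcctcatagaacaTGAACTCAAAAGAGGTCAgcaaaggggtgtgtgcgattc
CYP3A7, chr7:99735326-99735385, minus strand: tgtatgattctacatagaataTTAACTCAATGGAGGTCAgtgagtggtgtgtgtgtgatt
CYP3A43, chr7:99827815-99827874, plus strand: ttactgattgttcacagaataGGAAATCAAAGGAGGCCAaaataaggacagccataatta
The capitals start 169 bases before the gene start in CYP3A4, 113 in CYP3A5, 168 in CYP3A7 and 177 in CYP3A43. Counted from 1 at the 5′ end of the capitals, and with the CYP3A4 base first, CYP3A5 differed by G11A, which lies in the spacer between the groups. CYP3A7 differed by G2T and A10T, and CYP3A43 by T1G, C5A and T16C. The pattern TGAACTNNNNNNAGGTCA, searched on both strands of the 250 bases before each start, was in 3 of 34943 such windows (0.00859%), CYP3A4 and CYP3A5 among them and CYP3A7 and CYP3A43 not. Its second group alone, AGGTCA, was in 12.1% of windows, CYP3A4, CYP3A5 and CYP3A7 included, and TATAAA was in 10.8%, CYP3A4 and CYP3A7 included, at position -29 in both. The letters TTNNGCAA, a form of the C/EBP element, were in 9.06% of windows and in none of the 4, and CAAAGTCCA, a form of the HNF4 element, in 0.326% and in none of the 4. Over the 250 bases CYP3A4 and CYP3A7 had 236 identical bases in 251 columns of their alignment (94.0%), with gaps counted as columns. CYP3A4 and CYP3A43 had 169 in 264 (64.0%), and CYP3A4 and CYP3A5 162 in 308 (52.6%). Gaps lower these shares, so they do not rank the genes by the likeness of the bases that pair. A match of letters is a description of the reference and not a measured site.

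Median signal per array ran from 129.9 to 141.9 at 0 h and from 106.7 to 114.5 at 48 h. The ratio of the 3′ to the 5′ control probe set of ACTB, which rises as RNA degrades, was 2.035, 6.911 and 2.565 on the 0 h arrays and 1.019 to 1.273 at 48 h. The summed signal of 9 hepatocyte markers went from 422090–462780 at 0 h to 341710–371880 at 4 h, where 1 was called lower, and to 134270–151130 at 48 h, where all 9 were. Of 6 tested bile duct or progenitor markers 5 were called higher at 4 h and 3 (KRT7, KRT19 and CD44) at 48 h. Their list's summed signal was 11031–13701 at 0 h, 27712–35881 at 4 h, where the CYP3A5 probe sets were first called, and 24050–29278 at 48 h. Of 5 mesenchymal markers 1 was called lower at 4 h and 1 (ACTA2) higher at 48 h. Over all 9966 genes tested, 7.13% were called lower and 7.6% higher at 4 h, and 11.8% and 9.85% at 48 h. The part of RNA quality and of the mix of cells in the CYP3A changes was not tested. Without the 0 h array with the ratio of 6.911 (replicate 2), as with all arrays, 11 of the 12 CYP3A probe sets were called lower at 48 h. The remaining 0 h arrays, at 2.035 and 2.565, were still above those of 48 h, so RNA quality and time cannot be told apart here. At 1 h the ACTB ratio was 1.566 to 1.848 and at 4 h 1.338 to 2.12, so the arrays of these times overlapped. The same ratio for GAPDH was 1.111, 1.916 and 1.1 at 0 h and 0.902 to 0.9355 at 48 h. In RNA from whole cultures, fewer cells of a type and less RNA per cell cannot be told apart.

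Of the 12 CYP3A probe sets 11 were called lower at 48 h. The dim 210726_at was not called, though its 48 h arrays lay below all of 0 h. Those 11 did not fall together. The 3 of CYP3A5 had fallen 2-fold within 4 h, and the 3 bright ones of CYP3A4 between 5.51 and 12.5 h. A probe set was called where limma's adjusted p, over the 17122 probe sets tested, was under 0.05 and the change at least 2-fold. At 1 h, limma called 0 of the 12 lower (0.549% of all tested) and 0 had an unadjusted p under 0.05. At 4 h, 3 were called lower, all of CYP3A5 (6.38% of all tested), at 8 h 7 (9.3%), at 12 h 9 (9.48%), and at 16, 24 and 48 h 11 each (11.1%, 10.8% and 11%). In these 7 comparisons limma called 0 of the 12 higher, and 0 rose at an unadjusted p under 0.05. Of all tested, 1.99%, 7.13%, 8.01%, 8.46%, 8.52%, 9.26% and 9.23% were called higher, from 1 h to 48 h. The median change of the 12 went from -0.58 at 4 h to -2.07 at 16 h and -3.77 at 48 h on the log2 scale, beside -0.15, -0.16 and -0.12 over all probe sets tested. By the F-test over all times 11 of 12 passed (53.6% of all tested), and 210726_at was the exception.

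**Figure D1:**
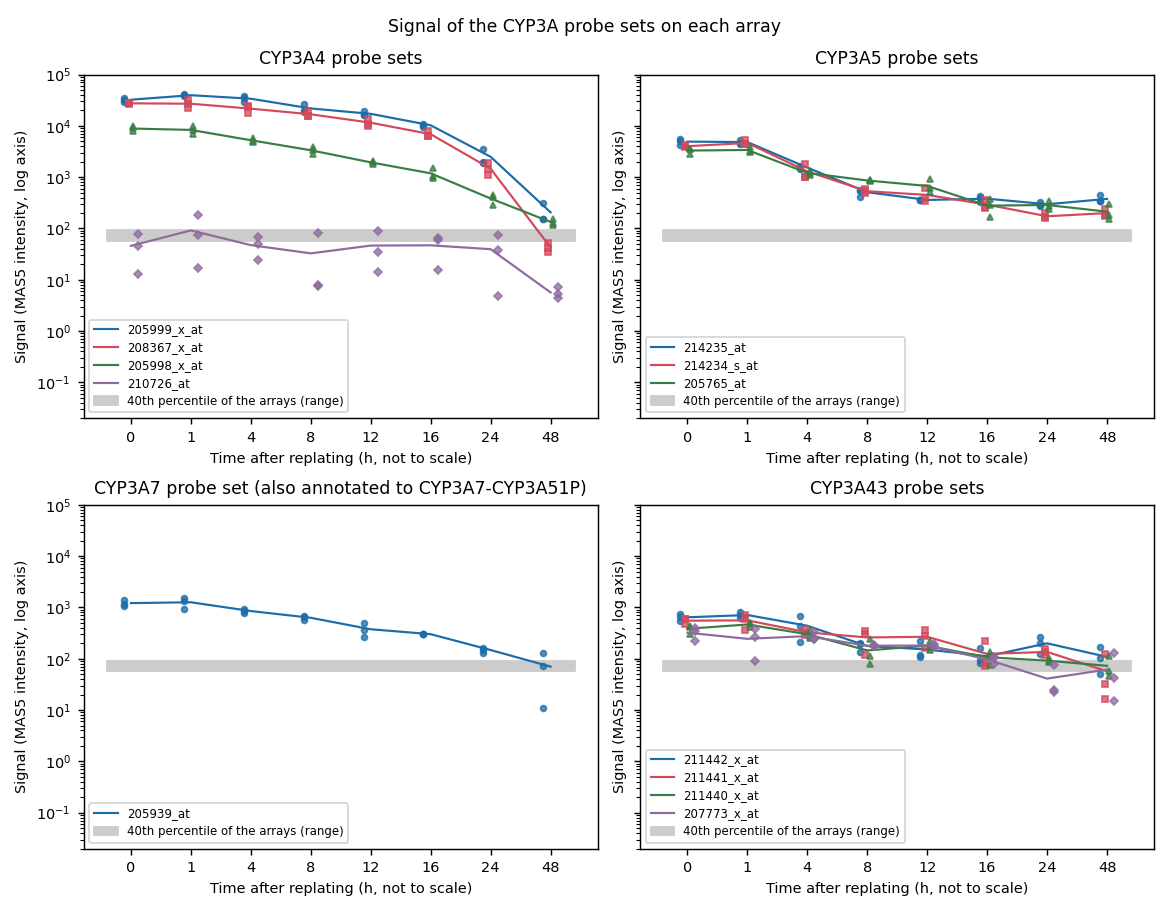
Signal of each CYP3A probe set on each array (MAS5 intensity, log axis) against time after replating (h, not to scale), in a panel for each gene; points are arrays, lines join the means of 3, and the grey band is the range over arrays of the 40th percentile of signal. CYP3A4 205999_x_at stays near its starting level to 4 h and ends at 155 to 309, whereas CYP3A5 214235_at is at 1429 to 1641 by 4 h and at 344 to 439 at 48 h.

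CYP3A4 was read by 3 bright probe sets and by 1 dim probe set that showed no call. The bright ones had fallen 2-fold later than those of CYP3A5 and were further down at 48 h. Signal of 205999_x_at was 29584, 32406 and 34928 at 0 h, 37785, 39171 and 41721 at 1 h, 29532, 37317 and 34458 at 4 h, and 18428, 20694 and 26370 at 8 h. It was 16119, 16148 and 19155 at 12 h, 9708, 10800 and 10279 at 16 h, 1919, 1964 and 3606 at 24 h, and 155, 156 and 309 at 48 h. The arrays of 4 h overlapped those of 0 h, and all 3 arrays of each time from 8 h on lay below all of 0 h. Changes from 0 h are given on the log2(signal + 18) scale throughout. They were 0.06 at 4 h (-0.01 without replicate 2 of 4 h) and -0.58 at 8 h (adjusted p = 0.0219, under 2-fold). Later they were -1.65 ± 0.20 (SE) at 16 h (adjusted p = 2.95e-08), -3.75 at 24 h and -7.23 ± 0.20 at 48 h (adjusted p = 7.87e-24). At 0 h this probe set ranked within the top percent of the array (percentiles 99.58 to 99.7).

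The second bright CYP3A4 probe set, 208367_x_at, read 26813, 28200 and 27460 at 0 h, 22399, 27015 and 31476 at 1 h, 17825, 23159 and 23873 at 4 h, and 15675, 15387 and 19278 at 8 h. It then read 10090, 10795 and 13639 at 12 h, 6239, 6417 and 7978 at 16 h, 1095, 1450 and 1847 at 24 h, and 51.6, 34.6 and 41.7 at 48 h. By 48 h all 3 arrays were below their 40th percentile of signal, so the level reached is near the floor of the array and the fold depends on the pseudocount of 18. The changes were -0.36 at 4 h (adjusted p = 0.108), -1.27 ± 0.16 at 12 h (adjusted p = 1.83e-07), -4.25 at 24 h and -8.83 ± 0.16 at 48 h (adjusted p = 1.65e-28).

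The third, 205998_x_at, is listed with the same design sequence as 208367_x_at. Its signal was 8995, 7880 and 9715 at 0 h, 6839, 8339 and 9818 at 1 h, 5104, 4879 and 5745 at 4 h, and 2857, 3348 and 3835 at 8 h. It was 1954, 2073 and 1803 at 12 h, 969, 1061 and 1535 at 16 h, 403, 458 and 290 at 24 h, and 128, 118 and 156 at 48 h. This probe set was already below its 0 h arrays at 4 h, by -0.75 (adjusted p = 0.000949, under 2-fold), and reached -1.41 at 8 h (adjusted p = 5.7e-08), -2.90 at 16 h and -5.87 ± 0.17 at 48 h (adjusted p = 2.87e-23). The fourth probe set, 210726_at, was above its array's 40th percentile on 5 of 24 arrays, with signals from 4.44 to 184.94. It read 44.9, 79.6 and 12.9 at 0 h and 4.44, 5.37 and 7.19 at 48 h, a change of -1.28 ± 0.68 (adjusted p = 0.146), and was called at no time.

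CYP3A5, which shares most substrates with CYP3A4, was called lower from 4 h on in all 3 probe sets. Signal of 214235_at was 4221, 5572 and 4988 at 0 h, 4668, 4511 and 5291 at 1 h, 1536, 1429 and 1641 at 4 h, and 568, 540 and 417 at 8 h. It was 356, 358 and 364 at 12 h, 327, 420 and 394 at 16 h, 327, 282 and 280 at 24 h, and 344, 439 and 347 at 48 h. The 3 arrays of 4 h lay below all of 0 h and 1 h, and on no array was the signal below the 40th percentile. The change was -0.02 at 1 h and -1.66 ± 0.16 at 4 h (adjusted p = 4.01e-10). By 8 h it was -3.23 and by 12 h -3.70, and it stood at -3.97 at 24 h and -3.65 at 48 h (adjusted p = 5.22e-19).

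The other CYP3A5 probe sets were also lower at 4 h and fell for longer. Signal of 214234_s_at, listed with the same design sequence as 214235_at, went from 3810, 4144 and 4079 at 0 h through 1844, 1029 and 1006 at 4 h and 535, 485 and 575 at 8 h to 251, 361 and 260 at 16 h and 174, 185 and 240 at 48 h. Its changes were -1.68 ± 0.21 at 4 h (adjusted p = 1.2e-07), -2.88 at 8 h, -4.40 at 24 h and -4.22 at 48 h. Signal of 205765_at went from 2852, 3544 and 3491 at 0 h through 1107, 1218 and 1309 at 4 h and 868, 846 and 869 at 8 h to 169, 379 and 288 at 16 h and 151, 185 and 302 at 48 h. The changes were -1.43 ± 0.23 at 4 h (adjusted p = 9.75e-06), -1.91 at 8 h, -3.54 at 16 h and -3.89 at 48 h. For both, the 3 arrays of 4 h lay below all 3 of 0 h.

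The probe set annotated to CYP3A7 and its readthrough gene, 205939_at, fell gradually. It read 1081, 1173 and 1391 at 0 h, 1539, 1312 and 934 at 1 h, 768, 946 and 837 at 4 h, and 669, 579 and 639 at 8 h. It read 368, 269 and 490 at 12 h, 297, 306 and 301 at 16 h, 132, 165 and 148 at 24 h, and 127, 72.3 and 11 at 48 h. The 3 arrays of 48 h spread over more than those of any other time on the log scale, and 1 of them was below the 40th percentile. Changes were -0.50 at 4 h (adjusted p = 0.267) and -0.93 at 8 h (adjusted p = 0.0243), the latter called without replicate 1 of 0 h (adjusted p = 0.0344) or with no threshold on the fold. They were -1.68 ± 0.32 at 12 h (adjusted p = 8.32e-05), -2.89 at 24 h and -4.08 ± 0.32 at 48 h (adjusted p = 2.61e-12). A further probe set, 211843_x_at, is annotated to the readthrough gene alone and so is not among the 12. It read 6313, 5276 and 8960 at 0 h, 982, 879 and 928 at 16 h and 105, 81.6 and 179 at 48 h, a change of -5.64 ± 0.21 at 48 h (adjusted p = 8.37e-21).

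The 4 probe sets of CYP3A43, which all end in _x_at, ranked at percentiles 60.74 to 82.78 of their array at 0 h and 19.5 to 57.9 at 48 h. That with the highest mean at 0 h, 211442_x_at, read 534, 638 and 756 at 0 h, 679, 209 and 431 at 4 h, and 193, 137 and 201 at 8 h. It read 159, 94.3 and 83.0 at 16 h, 206, 271 and 123 at 24 h, and 103, 50.1 and 173 at 48 h. The 4 h arrays overlapped those of 0 h and the 8 h arrays lay below them. Changes were -0.66 at 4 h, called only without replicate 1 of 4 h (-1.03, adjusted p = 0.0486), and -1.76 at 8 h. From 16 h on they ranged from -1.65 to -2.49 (± 0.36) at 48 h (adjusted p = 1.09e-06).

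Signal of 211441_x_at was 586, 484 and 585 at 0 h and 123, 16.3 and 32.1 at 48 h (-3.19 ± 0.41, adjusted p = 1.17e-07). That of 211440_x_at was 416, 429 and 305 and then 115, 45.9 and 57.4 (-2.20 ± 0.32, adjusted p = 1.39e-06), and 207773_x_at read 221, 395 and 352 and then 127, 42.4 and 14.8 (-2.33 ± 0.43, adjusted p = 5.5e-05). All 4 were called lower at 16, 24 and 48 h. Earlier calls were less firm. The 8 h call of 211441_x_at (-1.15, adjusted p = 0.0285) was lost without replicate 1 or 3 of 0 h or replicate 1 of 8 h (adjusted p = 0.0725, 0.0733 and 0.236). It was also lost without or with a larger pseudocount, with median centring and without the variance trend. At 12 h 211441_x_at (-1.05, adjusted p = 0.0457) and 211440_x_at (-1.02, adjusted p = 0.0137) lost their calls under quantile normalization, median centring and the larger pseudocount, and the first also without a pseudocount, filter or variance trend and with the replicate block (adjusted p = 0.0502). Without replicate 1 of 12 h their adjusted p was 0.229 and 0.0606. The latter call was also lost without replicate 1 or 2 of 0 h or replicate 3 of 12 h, and the former without any replicate of 0 h, replicate 1 of 1 h, replicate 2 or 3 of 4 h or replicate 3 of 12 h. The count of CYP3A probe sets called lower was accordingly 6 to 7 at 8 h and 7 to 9 at 12 h when each array was left out in turn.

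**Figure D2:**
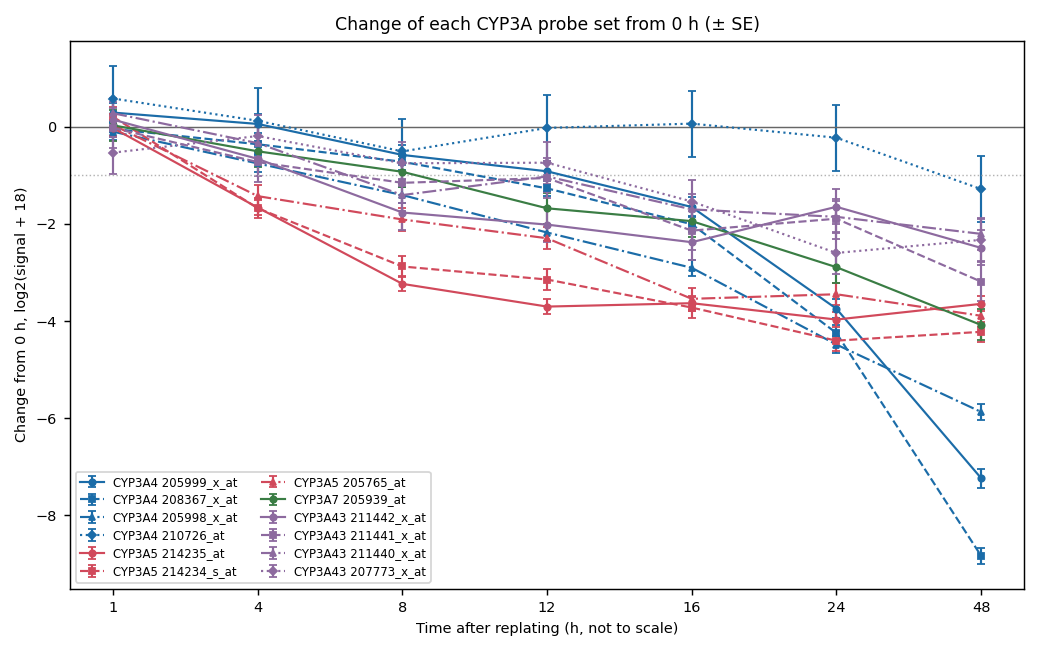
Change of each CYP3A probe set from 0 h on the log2(signal + 18) scale, with its SE from the fit (3 arrays a time), against time after replating (h, not to scale); the dotted line marks a 2-fold fall. The CYP3A5 lines lie below those of CYP3A4 at 4 h and above those of its 3 bright probe sets at 48 h.

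The time at which a probe set had lastingly fallen 2-fold, read by straight lines between the time means, set CYP3A5 apart from the other genes. The times of CYP3A4, CYP3A7 and CYP3A43 overlapped each other. It was 2.79 h for 214235_at, 2.92 h for 214234_s_at and 3.13 h for 205765_at, with a range over all 3 of 2.59 to 3.24 h when each array was left out in turn. For CYP3A4 it was 5.51 h (5.01 to 5.93) in 205998_x_at, 10.1 h (9.6 to 10.4) in 208367_x_at and 12.5 h (12.0 to 12.8) in 205999_x_at. The SEs of these times from leaving out arrays were 0.677, 0.643 and 0.567 h. Median centring moved the times to 6.48, 11.5 and 13.7 h, outside those ranges. With each array left out in turn, the CYP3A5 ranges did not overlap those of any bright CYP3A4 probe set, nor did the 3 CYP3A4 ranges overlap each other. Such a range is not a confidence interval. The changes of 205999_x_at and 208367_x_at differed by 0.14 at 8 h (95% interval -0.30 to 0.58) and by 0.35 at 12 h (-0.09 to 0.79), intervals that include 0.

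The CYP3A7 probe set took 8.4 h (7.96 to 8.93), and those of CYP3A43 took 5.23 to 13.3 h, where 2 of them moved to over 12 h when 1 array was left out. Those were 211440_x_at to 12.4 h without 0 h replicate 2 or 12 h replicate 1, and 211441_x_at to 12.7 h without 12 h replicate 1. Both also passed 12 h under median centring and with the larger pseudocount (the 40th percentile), and 211440_x_at under quantile normalization. Median centring also moved 205939_at to 9.36 h and 207773_x_at to 14.6 h, and the larger pseudocount moved 207773_x_at to 14.7 h. By 4 h, 214235_at had made 45.6% of its change at 48 h, 214234_s_at 39.7% and 205765_at 36.7%, whereas 205998_x_at had made 12.8%, 208367_x_at 4.05% and 205939_at 12.3%. By 24 h the CYP3A5 probe sets were at 88.6% to 109% of their final change and the bright CYP3A4 probe sets at 76.4% (205998_x_at), 51.8% (205999_x_at) and 48.1% (208367_x_at).

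Between neighbouring times the calls moved from gene to gene. From 1 to 4 h, 3 probe sets were called lower (4.02% of all tested), all of CYP3A5. From 4 to 8 h there were 3 (1.56%), CYP3A5 214235_at and 214234_s_at and CYP3A43 211440_x_at, a count that was 1 to 4 when each array was left out in turn and 1 without 4 h replicate 1. From 8 to 12 h limma called 0 (0.128%), with 4 lower at an unadjusted p under 0.05, and from 12 to 16 h 1, 205765_at (0.123%), which was not called without 12 h replicate 2 or 16 h replicate 1. From 16 to 24 h the 3 bright CYP3A4 probe sets were called (0.479%), and from 24 to 48 h the same 3 and 205939_at (0.876%). In these 6 steps limma called 0 higher, with 1 rise at an unadjusted p under 0.05, from 24 to 48 h. Of all tested, 5.75%, 0.993%, 0.234%, 0.0818%, 0.672% and 0.327% were called higher, in the order of the steps.

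To ask whether probe sets changed unequally, the difference of the log2 values of each pair was taken within each array and its variation over the 8 times tested by permuting arrays over times (100000 permutations, one-sided in F, adjusted over the 66 pairs). Of the 66 pairs, 53 changed unequally: 44 of 51 pairs from different genes and 9 of 15 pairs of the same gene. These counts include the pairs of the dim 210726_at, which can differ from a falling probe set by staying near the floor. Among CYP3A4 probe sets alone 6 of 6 pairs changed unequally, and 3 of 3 without 210726_at. All 9 pairs of a bright CYP3A4 probe set with a CYP3A5 probe set did, each with an adjusted p of 3e-05 from the smallest raw p that these permutations can give (1e-05). The same was found in 2 of 3 pairs of CYP3A5 with CYP3A7 (largest adjusted p = 0.0828) and in 11 of 12 pairs of CYP3A5 with CYP3A43. It was also found in 12 of 16 pairs of CYP3A4 with CYP3A43, where every pair that did not pass held the dim 210726_at. The same held for 3 of 4 pairs of CYP3A7 with CYP3A43 and 4 of 4 pairs of CYP3A4 with CYP3A7.

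The change of CYP3A4 205999_x_at minus that of CYP3A5 214235_at was 0.32 at 1 h (95% interval -0.32 to 0.96), 1.72 at 4 h (1.08 to 2.37) and 2.66 at 8 h (2.01 to 3.30). At 24 h it was 0.22 (-0.42 to 0.87) and at 48 h -3.59 (-4.23 to -2.95). CYP3A5 was thus the further fallen at 4 and 8 h and CYP3A4 at 48 h. For 208367_x_at minus 214235_at the difference was 1.31 at 4 h (0.77 to 1.84) and -5.19 at 48 h (-5.72 to -4.66), a size that depends on the pseudocount since 208367_x_at was then near the floor. For 205998_x_at minus 214235_at it was 0.91 at 4 h (0.42 to 1.40) and -2.23 at 48 h (-2.72 to -1.73). The smallest gap at 4 h among these 9 pairs was that of 205765_at minus 205998_x_at, -0.67 (-1.22 to -0.13), and at 8 h its interval included 0 (-0.50, -1.05 to 0.05).

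**Figure D3:**
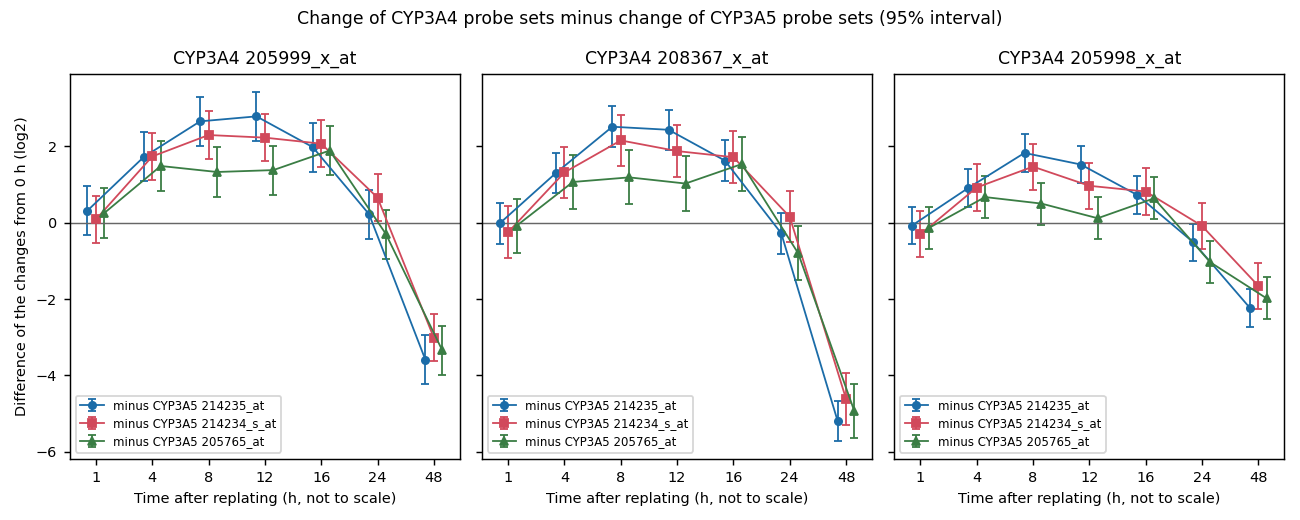
Change from 0 h of each bright CYP3A4 probe set minus that of each CYP3A5 probe set (log2), with 95% intervals from the spread of within-array differences, against time after replating (h, not to scale). Values lie above 0 at 4 h in all 9 pairs, where CYP3A5 had fallen further, and below 0 at 48 h, where CYP3A4 had.

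Probe sets of the same gene did not always move equally either. The 3 bright CYP3A4 probe sets differed from each other over time (3 of 3 pairs, adjusted permutation p = 0.000102 to 0.000227). The change of 205998_x_at minus that of 205999_x_at was -0.81 at 4 h (-1.45 to -0.17), -1.25 at 16 h and 1.36 at 48 h (0.72 to 2.00), so 205998_x_at fell sooner and ended less far down. With 208367_x_at, which shares its design sequence, 205998_x_at differed by 2.96 at 48 h (2.46 to 3.47). Between 205999_x_at and 208367_x_at the intervals from 1 to 16 h included 0. Their difference was 0.50 at 24 h (0.06 to 0.94) and 1.60 at 48 h (1.16 to 2.04). Of these, 208367_x_at was near the floor at 48 h, so the sizes of its differences there depend on the pseudocount. How much of these differences comes from probes that bind other transcripts was not tested.

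The 3 CYP3A5 pairs also differed (adjusted permutation p = 0.000213 to 0.00612): 205765_at lagged 214235_at by 1.33 at 8 h (0.79 to 1.87), and at 48 h the difference was -0.25 (-0.78 to 0.29). Among the 4 CYP3A43 probe sets 0 of 6 pairs passed (adjusted permutation p = 0.0644 to 0.444), which at this noise does not show that they act alike. For CYP3A7 205939_at against the 3 CYP3A5 probe sets all intervals at 48 h included 0. At 1 h no interval excluded 0 in 43 pairs of different genes and 12 pairs of the same gene (210726_at left out), and at 48 h 36 of 43 and 5 of 12 did.

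Over the 8 time means, 208367_x_at followed 205999_x_at with Pearson's r = 0.998, 211843_x_at with 0.959, 205998_x_at with 0.953 and 205939_at with 0.952. By contrast 214234_s_at (0.979), 211442_x_at (0.951), 205765_at (0.930) and 211440_x_at (0.923) lay closer to CYP3A5 214235_at. The points of such an r share arrays and a common fall, so it is a description. The other CYP3A43 probe sets, 211441_x_at (0.900 with 205999_x_at, 0.814 with 214235_at) and 207773_x_at (0.865 and 0.731), had the higher r with CYP3A4, but no pair of CYP3A43 probe sets was found to change unequally.

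Deviations of single arrays from the mean of their time can be shared where probe sets read the same RNA. Over 24 arrays the median r of these deviations was 0.207 (-0.145 to 0.544) in the 15 pairs of the same gene and -0.0709 (-0.53 to 0.479) in the 51 pairs of different genes. The highest were 205999_x_at with 208367_x_at (0.54) and 211440_x_at with 211441_x_at (0.49), each of the same gene. Next came pairs of different genes, CYP3A43 207773_x_at with CYP3A4 208367_x_at (0.48) and with CYP3A7 205939_at (0.46). The pairs listed with the same design sequence had 0.19 (205998_x_at with 208367_x_at) and 0.07 (214234_s_at with 214235_at). Residual SDs between arrays of the same time were 0.158 to 0.322 for CYP3A5 and 0.228 to 0.293 for the bright CYP3A4 probe sets on the log2 scale, 0.476 for CYP3A7, 0.388 to 0.603 for CYP3A43 and 0.886 for the dim 210726_at, and r here is limited by noise.

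**Figure D4:**
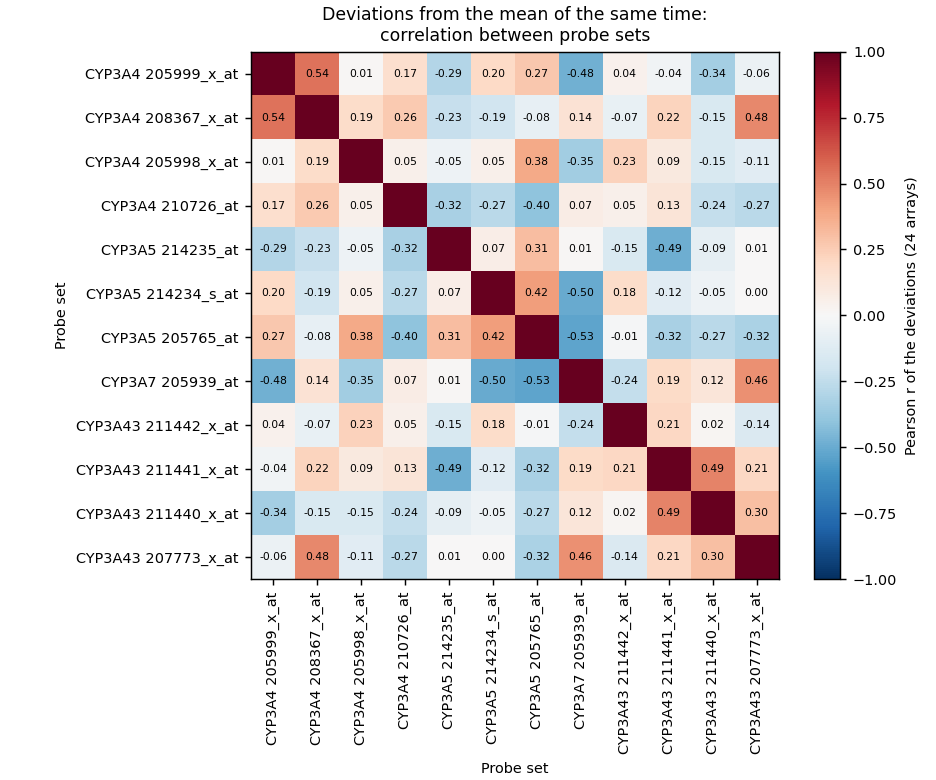
Pearson's r between CYP3A probe sets of the deviations of the 24 arrays from the mean of their time (log2 scale), probe sets ordered by gene on both axes. The highest value, 0.54, is that of CYP3A4 205999_x_at with 208367_x_at, and pairs of different genes run from -0.53 to 0.48.

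Genes that act on or with CYP3A were taken from a list of receptors and liver transcription factors, electron donors, other targets of PXR and CAR, and the cytokine pathway that represses CYP3A4. Of 50 listed, 38 were on the array with a symbol of their own and 35 were tested, each by its probe set with the highest mean and with p-values adjusted over the 9966 genes tested. At 4 h 3 were called lower and 1 higher, where 7.13% of all genes were called lower and 7.6% higher. At 24 h 20 were lower and 1 higher (11.3% and 10.5% of all genes) and at 48 h 19 and 1 (11.8% and 9.85%). Their median change was -0.39 at 4 h, -1.10 at 24 h and -1.27 at 48 h, beside -0.16, -0.09 and -0.12 over all genes.

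The 3 genes lower at 4 h, a share near that of all genes, were CEBPA, NCOA1 and HLF, all from the 16 tested receptors and transcription factors. CEBPA, a liver transcription factor that activates CYP3A4, went from 625.22 ± 34.95 (SD, n = 3) at 0 h to 60.25 ± 27.95 at 4 h (-3.11, adjusted p = 2.07e-08). NCOA1, a coactivator of nuclear receptors, changed by -1.23 (adjusted p = 0.000163) and HLF, a liver member of the PAR bZIP factors, by -1.48 (adjusted p = 0.00877). The gene higher at 4 h was NFKB1, a subunit of NF-kappaB (1.88, adjusted p = 9.14e-07), which was back at -0.04 at 24 h. NR1I3, which encodes CAR, stood at 0.01 at 4 h and fell later, by -3.15 at 24 h and -3.54 ± 0.45 at 48 h (adjusted p = 8.63e-08). RXRA, the partner of PXR and CAR, was at -0.51 at 48 h, under 2-fold. NR1I2, which encodes PXR, and HNF4A are not analysed here.

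By 48 h 7 of 16 receptors and transcription factors were lower and 1 higher, where 11.8% of all genes were called lower and 9.85% higher. POR, the reductase that feeds electrons to all microsomal P450 enzymes, was at -0.10 at 4 h and fell from 1677 ± 288.1 to 284.29 ± 17.39 at 48 h (-2.47 ± 0.16, adjusted p = 2.96e-14). CYB5A, cytochrome b5, fell by 1.87 at 48 h, and CYB5R3, its reductase, was at 0.12. Of 9 other targets of PXR and CAR 8 were lower at 48 h, among them CYP2B6 (-6.06), ABCB1, the drug efflux pump P-glycoprotein (-2.04), and CES2, a carboxylesterase (-1.83). Of 7 genes of the cytokine pathway 2 were lower at 48 h, IL6R (-1.65) and SOCS3 (-1.45), a count too small to set apart from the 11.8% of all genes. IL6 was called higher at 1 h (2.52, adjusted p = 8.79e-08), stood at 0.96 at 4 h, under 2-fold, and was at 0.02 at 48 h.

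At 24 h, the time with the most calls, the largest falls of the list were those of SULT2A1, a steroid sulfotransferase (6446.1 ± 555.2 to 139.67 ± 81.4, -5.51 ± 0.24, adjusted p = 3.79e-18), HLF (-4.02 ± 0.44), CYP2C8 (-3.83 ± 0.24) and CYP2A6 (-3.53 ± 0.21), the last on a probe set that can bind RNA of its gene family. VDR, the vitamin D receptor and the sole gene of the list called higher, went from 119.96 ± 48.92 to 534.92 ± 114.2 (2.04 ± 0.35, adjusted p = 1.7e-05).

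**Figure D5:**
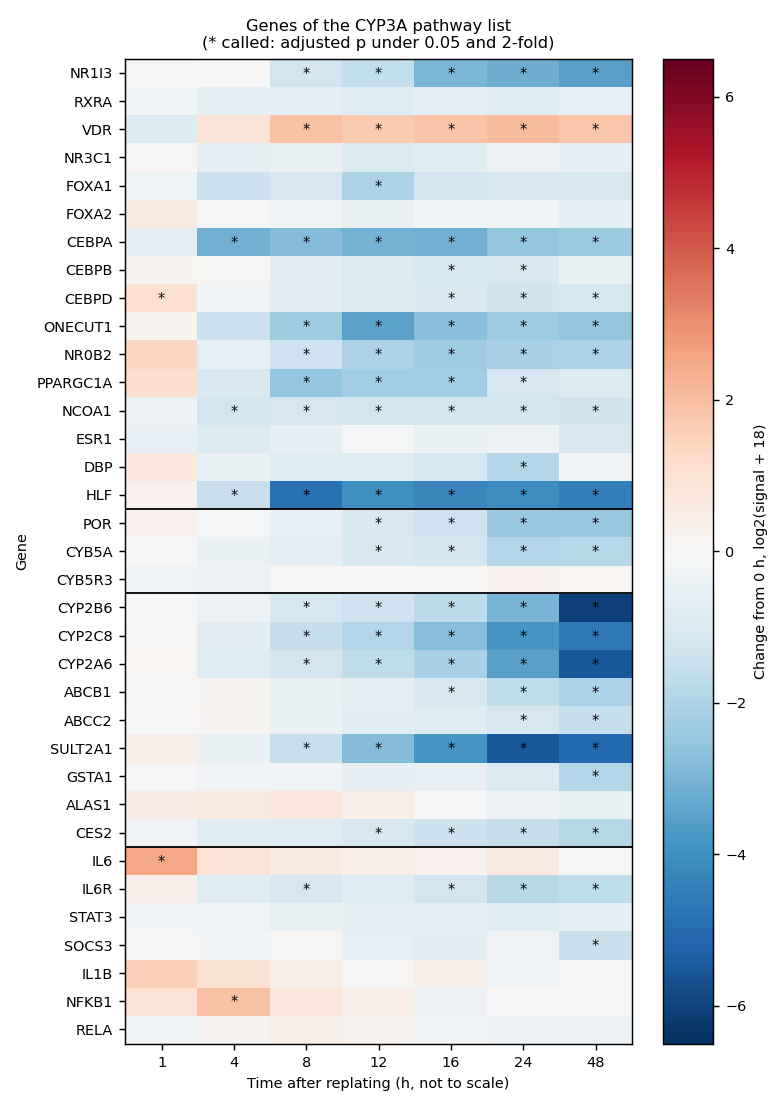
Change from 0 h (log2(signal + 18), colour) of the 35 tested genes of the CYP3A pathway list, a row each, against time after replating (h); black lines part the 4 groups of the list and stars mark calls. At 4 h the stars of a fall are CEBPA, NCOA1 and HLF, and at 48 h 19 genes are lower and 1, VDR, is higher.

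The genes whose 8 time means followed CYP3A4 205999_x_at most closely were CYP2E1, an ethanol-metabolising P450 (r = 0.997, -7.43 at 48 h), AGXT, a peroxisomal aminotransferase (0.996, -5.14), SERPIND1, a secreted thrombin inhibitor (0.995, -4.20), CYP2B6 (0.993, -6.06) and HSD11B1, which regenerates cortisol (0.993, -2.42). Those that followed CYP3A5 214235_at were AIFM1, a mitochondrial flavoprotein (r = 0.995, -1.11), CETN2, a centrin (0.994, -1.07), GCHFR, the feedback regulator of GTP cyclohydrolase (0.993, -1.51), SEPHS2, which makes selenophosphate (0.993, -2.20), and SORL1, a sorting receptor (0.992, -3.31). The lists have no gene in common, and each was chosen for its r over 8 points. CYP2E1 and CYP2B6 ended near the floor, so the sizes of their falls depend on the pseudocount.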

How the data were processed

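Total RNA of 24 HepaRG samples was hybridised to a 1-colour 3′ expression array. The deposited values are linear signal intensity, made by the authors with MAS5 per the submitters' processing notes; scaling and software version are not stated there. Gene symbols came from the platform annotation (19065 probe sets with 1 symbol, 1043 with several, 2107 with none). Values were taken as log2(signal + 18), 18 being the 20th percentile of all signals, which understates changes of dim probe sets. Probe sets above their array's 40th percentile on at least 3 arrays were tested (17122 of 22215) with limma 3.58.1 (R 4.3.3; all 24 arrays, eBayes with trend, 16 residual degrees of freedom, Benjamini-Hochberg adjustment), after a check on simulated data. The number of arrays limits the precision. Replicate numbers were not used as a block, since 0 of 84 same-numbered pairs of arrays had a correlation of deviations over 0.1.

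Named were all CYP3A probe sets, the up to 4 largest called changes each way of the pathway list in the comparison with most calls, and the 5 genes most alike CYP3A4 and CYP3A5 in time course; other list genes were chosen after their values were seen. The members and lists were chosen with earlier results of these data known.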

Additional observations from a re-analysis of the deposited data

How the results depend on the processing

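Results were recomputed without or with a larger pseudocount, with quantile normalization or median centring of the arrays, with no or a stricter filter, without the variance trend, without the fold threshold, with a replicate block, and without each array in turn. The counts of CYP3A probe sets called lower against 0 h stayed within 1.5 times in all of these. The pair test was recomputed in fewer settings: without or with a larger pseudocount, with either normalization, and without all 0 h arrays. There the 53 unequal pairs became 46 to 58. All probe sets tested had a median change of -0.11 to -0.16 from 4 h on, which median centring takes out. Genes of the pathway list called higher at 4 h were 1, against 2 without a pseudocount, 3 with quantile normalization, with median centring or without the fold threshold, and 1 to 2 without each array. Those called lower were 3, against 5 with the stricter filter and 10 without the fold threshold, where the other CYP genes went from 3 to 9. Without the fold threshold 5 CYP3A probe sets fell from 4 to 8 h, 1 in the step to 12 h and 3 in the step to 16 h, the latter 0 without the variance trend. Without each array the step to 8 h had 1 to 4 and the step to 16 h 0 to 1. With the replicate number as a block the counts against 0 h were 3 at 4 h and 11 at 48 h, and 8 in place of 9 at 12 h.

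Some signs reversed, in changes that were not called. With quantile normalization 211441_x_at at 1 h was 0.0354, and 210726_at was 0.1732 at 12 h and 0.0175 at 24 h. With median centring 208367_x_at at 1 h was 0.0101, 211441_x_at 0.0283 and 214235_at 0.0268, and 210726_at at 12 h was 0.1764. Without each array the 1 h changes ran from -0.0702 to 0.1008 for 205765_at, -0.1245 to 0.2305 for 205939_at, -0.2253 to 0.0350 for 205998_x_at, -0.9178 to 0.0207 for 207773_x_at, -0.1599 to 0.0853 for 208367_x_at, -0.0330 to 1.2432 for 210726_at, -0.2312 to 0.2393 for 211441_x_at and -0.1313 to 0.0683 for 214235_at. At 4 h that of 205999_x_at ran from -0.0149 to 0.1538. The dim 210726_at ran from -0.3207 to 0.5076 at 4 h, -0.4943 to 0.3892 at 12 h, -0.3791 to 0.4848 at 16 h and -0.6872 to 0.3320 at 24 h. The cause was not tested.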

Other observations

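Beside the CYP3A genes, 31 other genes with a CYP symbol were tested. At 4 h 3 were called lower (CYP7A1, the first enzyme of bile acid synthesis, CYP4F3 and CYP2B7P) and 2 higher, where 7.13% of all genes were lower and 7.6% higher, so the 4 h share is near that of all genes. At 24 h 19 were lower and 2 higher (11.3% and 10.5% of all genes), and at 48 h 21 lower and 0 higher by limma (11.8% and 9.85%). CYP7A1 went from 469.71 ± 42.82 (SD, n = 3) at 0 h to 41.477 ± 32.90 at 4 h (-3.18 ± 0.48, adjusted p = 3.49e-06). CYP1A1, a target of the aryl hydrocarbon receptor, moved the other way: it was at 185.21 ± 58.35 at 0 h, 2811.6 ± 657.4 at 4 h (3.81 ± 0.32, adjusted p = 2.46e-11), at 4.31 above 0 h at 8 h and at -1.35 at 48 h. At 48 h the largest falls were those of CYP2E1 (-7.43), CYP2B6 (-6.06) and CYP4F2 (-5.62). The mean signals of CYP2E1 and CYP2B6 were then 45.548 and 11.354, near the floor, so these sizes and their order depend on the pseudocount.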
